A study of Homo sapiens with 6 samples.

Results

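The genes that drive and restrain the passage from G1 into S phase were examined in LM3 cells, an established human hepatocellular carcinoma (HCC) line, after stable knockdown of ZNF706. The set comprised the D-type cyclins CCND1, CCND2 and CCND3, the E-type cyclins CCNE1 and CCNE2, the kinases CDK2, CDK4 and CDK6, the inhibitor p27 (CDKN1B) and the retinoblastoma protein (RB1). These 10 genes were taken by symbol from the 33007 genes of the deposited table, in which each symbol had 1 row. RNA from 6 samples was sequenced on the Illumina NovaSeq system. The control group (n = 3) carried the empty lentiviral vector and the knockdown group (n = 3) a short hairpin RNA against ZNF706, both in LM3 cells that the labels call wild type, and transduced cells were selected with puromycin. The sources used here do not say which of the study's hairpins was sequenced or whether the 3 samples of a group were separate cultures, so the p-values measure the spread between these samples, which may be technical. The table gave counts (reads per gene) and FPKM (counts scaled by gene length and library size). Control samples totalled 62684076, 64713764 and 63054445 counts, and knockdown samples 68548419, 65861994 and 69057423, so each knockdown sample was the deeper.

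D-type cyclins bind CDK4 and CDK6 in response to growth signals and begin to phosphorylate RB1, which holds E2F transcription factors in check. Cyclin E with CDK2 completes this phosphorylation, E2F factors are released, and genes for DNA synthesis are switched on. The inhibitor p27 binds cyclin-CDK complexes and restrains CDK2 above all, until the ubiquitin ligase subunit SKP2 marks it for destruction. Proliferation of liver tumour cells commonly runs through this switch.

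The labels were checked first. Counts of ZNF706, the gene aimed at, were 3211, 3504 and 3357 with the vector and 2350, 2068 and 2298 with the hairpin. As CPM, the counts scaled to a common library size with TMM factors, this was 53.9 ± 1.76 (SD, n = 3) in control and 32.4 ± 1.39 (SD, n = 3) in knockdown cells, which is -0.73 on the log2 scale (SE 0.050, adjusted p = 3.7e-05, edgeR quasi-likelihood test). Of 12 liver and epithelial markers, the keratins KRT8 and KRT18 were abundant, with KRT8 between 1482 and 1604 CPM, whereas albumin (ALB) lay between 1.97 and 14.4 CPM and HNF4A, a hepatocyte transcription factor, between 0.39 and 1.97 CPM. Keratins were thus abundant and defining hepatocyte markers low, and the epithelial marker EPCAM did not exceed 1.10 CPM. Of the 11 tested genes of this list, 1 was called lower (9.09%, against 12.4% of all tested genes) and 0 higher (against 10.4%). This was SERPINA1, a secreted liver protein (-1.47 on the log2 scale, adjusted p = 0.0034), from 4.37 to 1.58 CPM. The log2 fold change was below 0 for 9 of the 11, with a median of -0.70. Over all tested genes it was below 0 for 8948 of 18390. The median of the list ran from -1.10 to -0.24 over alternative settings of the fit. Some of its genes were very low, such as TTR and FOXA2 (means of 0.11 and 0.32 CPM in control). Others were uneven between samples, such as TF (0.60, 5.68 and 6.11 CPM in control). A joint fall of the list is therefore not shown. Over alternative settings of the fit, 0 to 3 genes of the list were called lower. Among 9 markers of other cell types, PTPRC (leukocytes) did not exceed 0.13 CPM and COL1A2 (fibroblasts) did not exceed 1.89 CPM. COL1A1, a collagen gene, had the highest CPM of the list, with means of 73.8 in control and 85.0 in knockdown cells. Mean CPM went from 26.6 in control to 41.4 in knockdown cells for CD68 and from 5.44 to 8.70 for PDGFRB. For CDH5 it went from 8.83 to 5.42, and for PECAM1 from 6.06 to 6.72. The summed level of that list was 121, 120 and 125 CPM in control and 145, 151 and 148 CPM in knockdown cells. Of its 6 tested genes, 3 (50%, against 10.4% of all tested genes) were called higher and 1 (16.7%, against 12.4%) lower. CD68 (0.64, with another gene counted at the same place on the same strand), PDGFRB (0.68) and COL1A1 (0.20) rose and CDH5 (-0.70) fell on the log2 scale, with adjusted p of 0.00011, 0.0030, 0.0023 and 0.0014 from the same edgeR test. Their part in the results below was not tested.

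ZNF706 knockdown was accompanied by lower CDK2, CCNE2 and RB1 mRNA, and none of the 10 genes was called higher. CDK2 fell by 18.5%, CCNE2 fell by 15.6% and RB1 fell by 7.64%. The calls were not equally firm: over 14 alternatives CDK2 was called lower in 14, CCNE2 in 8 and RB1 in 4, and CDK6 was called higher in 3. CCND1, CCND3, CCNE1, CDK4, CDK6 and CDKN1B did not pass the test, and CCND2 was not expressed enough to be tested. A gene was called at a Benjamini-Hochberg adjusted p below 0.05 in edgeR's quasi-likelihood test over all 18390 genes with enough counts. Of these, 22.8% were called, 10.4% higher and 12.4% lower in the knockdown. Among the 9 tested genes of the set, 3 (33.3%) were called lower and 0 higher. Their median log2 fold change was -0.051, against 0.0095 for all tested genes, and their median absolute log2 fold change was 0.11, against 0.20. The balance of calls depended on scaling: by library size alone, 2742 of all genes were called higher and 1518 lower, in place of 1906 and 2286. The control and knockdown samples did not overlap for CDK2, CCNE2, RB1 and CDK6, that is 4 of 9, where 39.4% of all tested genes showed no overlap. In bulk RNA, fewer cells in a given cycle phase and less RNA per cell cannot be told apart.

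**Figure D1:**
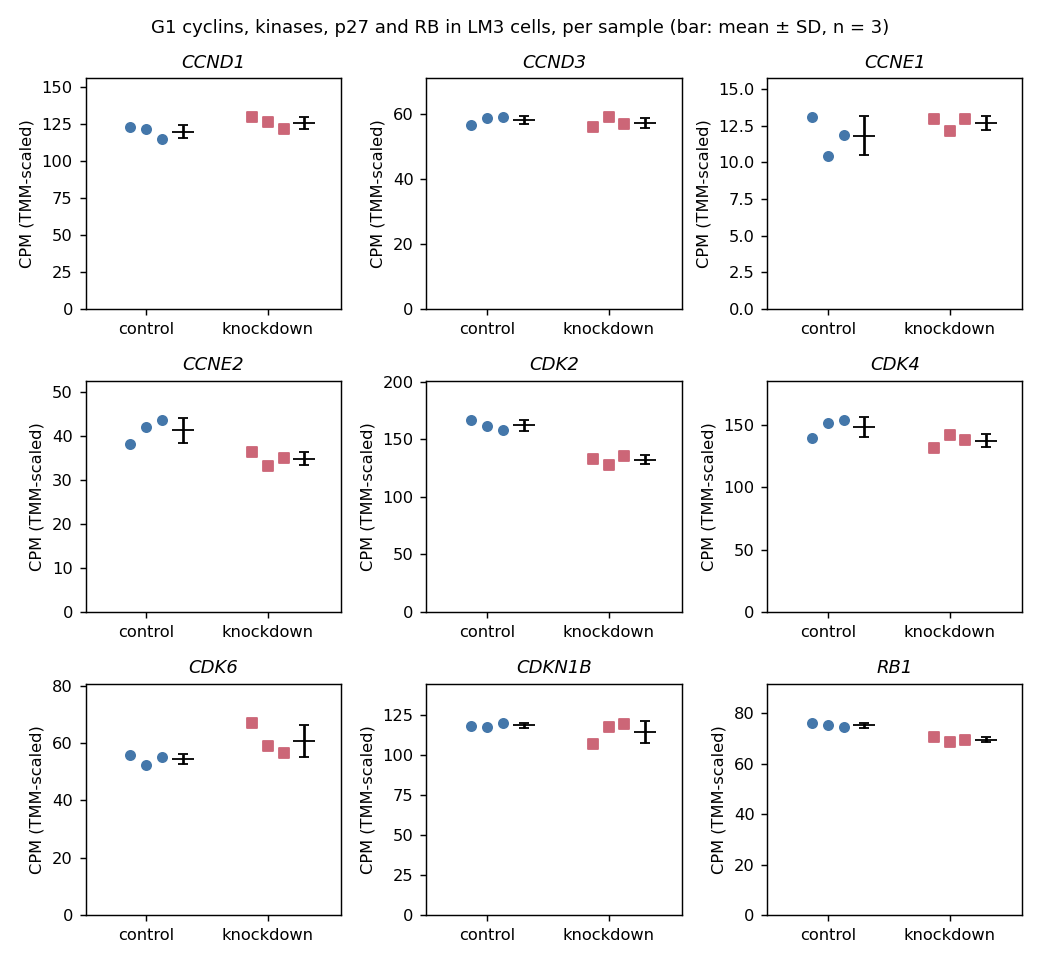
CPM (TMM-scaled, vertical axis from 0) of the 9 tested genes in each control sample (circles) and knockdown sample (squares), with mean ± SD (n = 3). The knockdown samples of CDK2 (128 to 136 CPM) all lie below the control samples (158 to 167 CPM), whereas those of CCND1, CCND3, CCNE1, CDK4 and CDKN1B overlap the controls.

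The D-type cyclins, which couple growth signals to CDK4 and CDK6, were represented by CCND1 and CCND3. CCND1 (ENSG00000110092, chromosome 11, 69641156 to 69654474, plus strand, GRCh38) was measured at 123, 122 and 115 CPM in control and at 130, 126 and 122 CPM in knockdown cells. The knockdown samples ran slightly higher and the ranges touched, since the lowest knockdown sample fell below the highest control sample. The log2 fold change was 0.07 (95% interval -0.019 to 0.16, adjusted p = 0.25). CCND3 (ENSG00000112576, chromosome 6, 41934934 to 42050357, minus strand) gave 56.8, 58.8 and 59.3 CPM in control and 56.1, 59.1 and 57.2 CPM in knockdown cells. The values of the groups were interleaved, with a log2 fold change of -0.02 (95% interval -0.11 to 0.068, adjusted p = 0.77). Its sign was positive under scaling by library size alone (0.034) and in the test on FPKM (0.028). CCND2 (ENSG00000118971, chromosome 12, 4269771 to 4305350, plus strand), the other D-type cyclin, had 4, 0 and 0 counts in control and 4, 0 and 7 counts in knockdown samples, too few for a fold change.

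Of the E-type cyclins, which activate CDK2 late in G1, CCNE2 was called lower and CCNE1 was not called, and their 95% intervals overlapped. CCNE1 (ENSG00000105173, chromosome 19, 29811991 to 29824312, plus strand) stood at 13.1, 10.4 and 11.9 CPM in control and at 12.9, 12.1 and 12.9 CPM in knockdown cells. Control replicate 1 was the highest of all 6 samples, and the groups overlapped. With a wide interval, the log2 fold change was 0.10 (95% interval -0.13 to 0.33, adjusted p = 0.54). It was 0.019 without control replicate 2 and 0.18 without control replicate 1, and was called in neither fit. CCNE2 (ENSG00000175305, chromosome 8, 94879770 to 94896678, minus strand) stood at 38.2, 42.1 and 43.7 CPM in control and at 36.3, 33.3 and 35.0 CPM in knockdown cells. All knockdown samples lay below all control samples, although control replicate 1 came close to knockdown replicate 1. The log2 fold change was -0.25 (SE 0.062, 95% interval -0.38 to -0.11, adjusted p = 0.019). Leaving out samples in turn ended the call in 4 of 6 cases, although the fold change stayed about as large. These were without control replicate 2 (-0.23, adjusted p = 0.072), control replicate 3 (-0.21, 0.073), knockdown replicate 2 (-0.21, 0.089) and knockdown replicate 3 (-0.25, 0.051). With unfiltered counts it was not called either (-0.25, adjusted p = 0.0502). Removal of the GC content trend of each library also ended the call (log2 fold change -0.13, adjusted p = 0.22). The locus of CCNE2 overlaps INTS8 and NDUFAF6 on the other strand, with 99.4% and 53.8% as many counts as CCNE2. Whether strand was used in counting is not given in the sources used here, and neither neighbour was called (log2 fold changes -0.06 and 0.15, adjusted p = 0.70 and 0.26).

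Among the kinases, CDK2, the partner of cyclin E and later of cyclin A, showed the clearest difference. CDK2 (ENSG00000123374, chromosome 12, 55966781 to 55972789, plus strand) had 10338, 10281 and 9682 counts in control and 9344, 8577 and 9484 counts in knockdown samples. This corresponded to 167, 162 and 158 CPM against 133, 128 and 136 CPM. The gap of the groups was several times the SD within either group (4.67 CPM in control, 3.94 CPM in knockdown). The log2 fold change was -0.29 (SE 0.038, 95% interval -0.38 to -0.21, adjusted p = 0.00067). CDK2 was called lower under all 14 alternative settings of the fit, with log2 fold changes from -0.32 to -0.24 and adjusted p up to 0.0065. An absolute log2 fold change of 0.3 was reached by 0 of the 9 tested genes, CDK2 coming closest.

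CDK4 and CDK6, the kinases that bind D-type cyclins, had fold changes of opposite sign, and neither was called. CDK4 (ENSG00000135446, chromosome 12, 57747727 to 57756013, minus strand) was at 140, 151 and 154 CPM in control and 131, 142 and 138 CPM in knockdown cells. Control replicate 1 lay among the knockdown samples, and the log2 fold change was -0.11 (95% interval -0.22 to -0.0093, adjusted p = 0.11). CDK6 (ENSG00000105810, chromosome 7, 92604921 to 92836573, minus strand) was at 55.6, 52.4 and 55.1 CPM in control and 67.1, 59.0 and 56.3 CPM in knockdown cells. The groups did not overlap, but knockdown replicate 1 stood well above the others and the remaining knockdown samples were close to the controls. Its log2 fold change was 0.16 (95% interval 0.022 to 0.30, adjusted p = 0.093), and it was 0.086 without knockdown replicate 1. Once the trend on GC content was removed, CDK6 was called higher (0.27, adjusted p = 0.0095) and CDK4 lower (-0.14, adjusted p = 0.041). By library size alone, CDK6 was called higher as well (0.22, adjusted p = 0.037).

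On the restraining side, RB1 was slightly lower and p27 was not called. CDKN1B (ENSG00000111276, chromosome 12, 12715058 to 12722369, plus strand), which encodes p27, gave 118, 117 and 120 CPM in control and 106, 117 and 119 CPM in knockdown cells. Only knockdown replicate 1 lay clearly below the controls. The log2 fold change was -0.05 (95% interval -0.15 to 0.051, adjusted p = 0.48), and its sign turned under scaling by library size alone (0.0025). RB1 (ENSG00000139687, chromosome 13, 48303744 to 48599436, plus strand) gave 76.3, 75.3 and 74.4 CPM in control and 70.6, 68.7 and 69.5 CPM in knockdown cells. The replicates were tight, with an SD of 0.95 CPM in control and 0.99 CPM in knockdown cells, and the groups were separate. The log2 fold change was -0.11 (SE 0.034, adjusted p = 0.037). With any 1 of the 6 samples left out this small difference was not called (adjusted p 0.051 to 0.14), although its size was kept (-0.13 to -0.10). Nor was it called in DESeq2 (-0.11, adjusted p = 0.087), in limma on FPKM (-0.07, adjusted p = 0.20) or by library size alone (-0.06, adjusted p = 0.27). It was 0.0022 once the trend on GC content was removed. The transcripts of CCNE2, RB1 and CDK6 are poor in GC (36.9%, 37.3% and 39.5% for the longest transcript of each), whereas that of CDK2 has 51.5%.

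**Figure D2:**
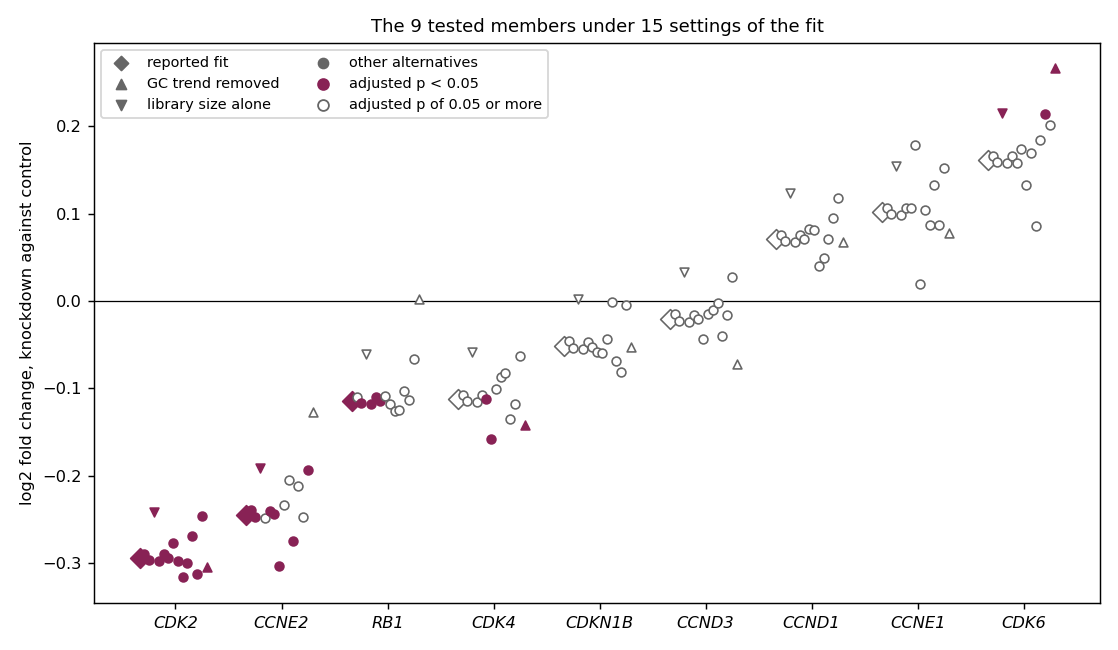
Log2 fold change (vertical axis, knockdown against control) of each tested gene in the reported fit (diamonds) and under 14 alternatives, with filled symbols for an adjusted p below 0.05. The symbols of CDK2 are all filled and lie between -0.32 and -0.24, whereas those of RB1 reach 0.0022 with the GC trend removed (upward triangle).

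Levels were then compared between genes on the FPKM scale, which accounts for length. CDK4 (41.3 ± 1.80 FPKM) and CDKN1B (39.8 ± 0.32 FPKM) led in control cells (SD, n = 3 in each group here) and were not distinct from each other. CDK2 followed at 36.0 ± 1.36, CCND1 at 21.7 ± 0.92, RB1 at 10.1 ± 0.22, CCND3 at 8.71 ± 0.13 and CCNE2 at 8.10 ± 0.49 FPKM, each with no sample overlapping its neighbour. CCNE1 (4.12 ± 0.49 FPKM) and CDK6 (3.83 ± 0.13 FPKM) overlapped each other, and CCND2 did not exceed 0.01 FPKM. In knockdown cells CDKN1B (39.7 ± 2.37 FPKM) and CDK4 (39.5 ± 1.52 FPKM) again overlapped at the top, and the order below them was as in control cells. CDK2 stood at 30.3 ± 0.84 FPKM there.

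Shares within a family do not depend on how samples are scaled to each other. The question was which paralog supplied the family's mRNA, and 3 shares were compared. CCND1 made up 72.3, 71.5 and 70.2% of the D-type cyclin FPKM in control and 73.7, 72.1 and 72.0% in knockdown cells. These ranges overlapped (exact permutation test, two-sided p = 0.3, adjusted p = 0.3 over the 3 shares). CCNE1 made up 37.9, 30.6 and 32.6% of the E-type cyclin FPKM in control and 38.9, 39.3 and 39.7% in knockdown cells. All knockdown samples were higher, by 5.58 percentage points in the mean, and control replicate 1 came close to them (exact permutation test, two-sided p = 0.1, adjusted p = 0.15). CDK6 made up 9.15, 8.05 and 8.30% of the summed CDK4 and CDK6 FPKM in control and 11.4, 9.53 and 9.34% in knockdown cells. The groups were again separate, by 1.6 percentage points in the mean and by 0.93 without knockdown replicate 1 (exact permutation test, two-sided p = 0.1, adjusted p = 0.15). With 3 samples against 3, 0.1 is the smallest p that this test can give.

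**Figure D3:**
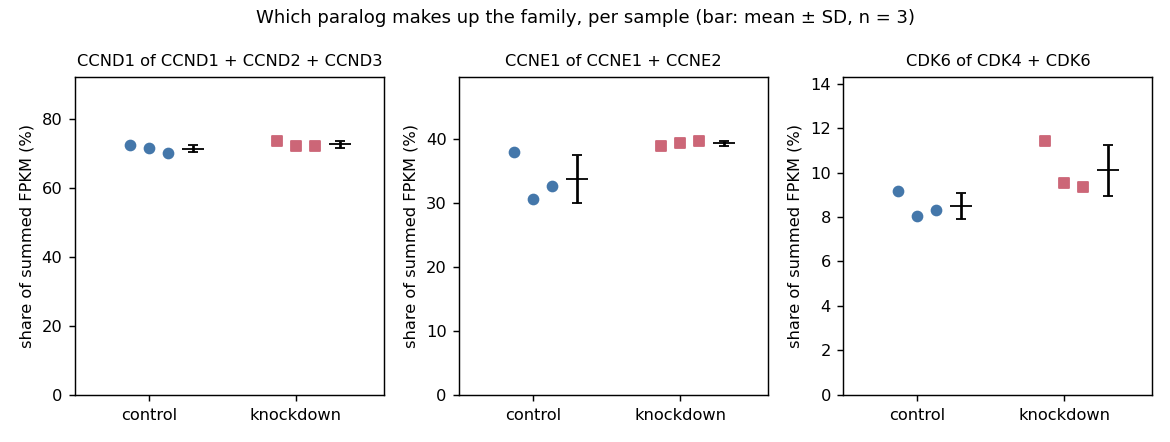
Share of the family's summed FPKM (%, vertical axis from 0) that came from CCND1, CCNE1 or CDK6 in each control sample (circles) and knockdown sample (squares), with mean ± SD (n = 3). CCNE1 rests between 38.9 and 39.7% in the knockdown samples and spreads from 30.6 to 37.9% in the controls.

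Other inhibitors of G1 kinases included genes called in both directions. Of 6 such genes, 2 were called higher, 1 lower and 3 were not called, with a median log2 fold change of 0.12 (all tested genes: 10.4% higher, 12.4% lower). CDKN1C, which encodes the p27 relative p57, was at 16.2, 14.7 and 17.6 CPM in control and 34.7, 36.0 and 35.9 CPM in knockdown cells. The groups were far apart, and CDKN1C rose with a log2 fold change of 1.14 (SE 0.077, adjusted p = 3.7e-05). Per length it went from 5.60 ± 0.48 to 12.8 ± 0.27 FPKM (SD, n = 3), so that it stayed below CDKN1B. CDKN2B, which encodes p15, an inhibitor of CDK4 and CDK6, was at 16.9, 15.7 and 15.4 CPM in control and 23.0, 20.6 and 24.2 CPM in knockdown cells, a log2 fold change of 0.50 (SE 0.085, adjusted p = 0.0028). The antisense gene CDKN2B-AS1 overlaps it with 53.2% as many counts and was not called (-0.22, adjusted p = 0.14). CDKN2D, which encodes p19, fell from 7.69 ± 0.14 to 5.42 ± 0.45 CPM (SD, n = 3), a log2 fold change of -0.50 (SE 0.11, adjusted p = 0.010). CDKN2A, which encodes p16, had the highest FPKM of the 6 over all samples (30.7, with CDKN2C at 30.5). In control cells CDKN2C was the higher (29.5 against 28.1 FPKM), and in knockdown cells CDKN2A was (33.3 against 31.6 FPKM). CDKN2A gave 137, 140 and 147 CPM in control and 147, 159 and 180 CPM in knockdown cells. Its groups met near 147 CPM and it was not called (0.20, adjusted p = 0.060). CDKN2A was called higher in 6 of 14 alternatives, among them DESeq2 (adjusted p = 0.0053) and library size alone (adjusted p = 0.018), whereas it stood at 0.11 without knockdown replicate 3 (adjusted p = 0.15).

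Downstream of RB1, the E2F factors that were called were lower in the knockdown. Of 12 pocket protein and E2F genes, 6 (50%, against 12.4% of all tested genes) were called lower, 0 higher (against 10.4%) and 6 were not called, with a median log2 fold change of -0.18. E2F7, a repressor of the family, was at 73.0, 70.2 and 68.1 CPM in control and 48.2, 51.2 and 47.5 CPM in knockdown cells. It fell by 30.5% (log2 fold change -0.52, SE 0.045, adjusted p = 9.0e-05), with the groups far apart. E2F8, its close relative (-0.30), E2F4, a repressor that binds with pocket proteins (-0.25), and TFDP1, the common dimer partner of E2F factors (-0.17), also fell, as did the activator E2F2 (-0.26, adjusted p = 0.021) and TFDP2, another dimer partner (-0.35, adjusted p = 0.012). TFDP1, the highest in FPKM of the list, went from 249 ± 2.76 to 221 ± 2.32 CPM (SD, n = 3). E2F1, another activator, was at 61.6 ± 1.76 CPM in control and 56.5 ± 2.47 CPM in knockdown cells (SD, n = 3) and was not called (-0.13, adjusted p = 0.068). It and the genes outside the 4 smallest p of each list were named after their values were seen.

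Genes of S phase entry that E2F factors are known to activate were lower for the part that was called, with 1 exception. Of 16, 7 (43.8%, against 12.4% of all tested genes) were called lower and 1 (6.25%, against 10.4%) higher, 8 were not called, and the median log2 fold change was -0.10. The list was chosen with earlier results of these data known, so its count is not independent support. RRM2, a subunit of ribonucleotide reductase, was at 664, 649 and 645 CPM in control and 517, 544 and 540 CPM in knockdown cells, a log2 fold change of -0.29 (SE 0.031, adjusted p = 0.00027). RRM1, its partner (-0.17), MCM7, a subunit of the replicative helicase (-0.20), and PCNA, the sliding clamp (-0.17), fell as well, as did the origin licensing factors CDC6 and CDT1 (-0.17 for each). MCM3, another helicase subunit, was called higher (0.11, adjusted p = 0.040). That call was not firm: 0 genes of the list were called higher with unfiltered counts, with the GC trend removed, without any 1 of the control replicates, or without knockdown replicate 1 or 2. The call of PCNA was lost by library size alone (-0.12, adjusted p = 0.052). It was also lost without control replicate 3 (-0.15, adjusted p = 0.051) and without knockdown replicate 2 (-0.16, adjusted p = 0.061), where the fold change stayed about as large. By library size alone, 4 genes of the list were called lower and 1 higher, and without knockdown replicate 2, 4 were lower and 0 higher.

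Regulators that act on the kinases and on p27 included a few lower genes. Of 5 genes for the activation and assembly of CDKs, 2 (40%, against 12.4% of all tested genes) were called lower. CDC25A, the phosphatase that activates CDK2, went from 104 ± 3.86 to 89.4 ± 0.93 CPM (log2 fold change -0.22, adjusted p = 0.0031), and CCNH, the cyclin of the CDK-activating kinase, from 60.6 ± 1.11 to 50.8 ± 3.04 CPM (-0.25, adjusted p = 0.0046; SD, n = 3). RASA1 overlaps CCNH on the other strand and was called higher (0.22, adjusted p = 0.030), and CCNH was not called once the GC trend was removed (-0.13, adjusted p = 0.18). CDC37, the chaperone that helps CDK4 fold and the highest in FPKM of this list, differed by 0.01 on the log2 scale (adjusted p = 0.85), and its sign turned without control replicate 1, without knockdown replicate 3 and with the GC trend removed. Of 8 genes for the turnover of p27 and G1 cyclins, SKP2 alone was called, a share of 12.5% that is close to the 12.4% of all tested genes called lower. SKP2 was at 126, 124 and 120 CPM in control and 102, 101 and 95.1 CPM in knockdown cells, with a log2 fold change of -0.31 (SE 0.039, adjusted p = 0.00056). CKS1B, the SKP2 cofactor and the highest of these 8 on the FPKM scale, overlapped between groups (144 ± 9.04 and 138 ± 10.1 CPM, SD, n = 3). Of 5 cyclin and kinase genes of S and M phase, 2 (40%, again against 12.4%) were called lower, CDK1 (-0.31, adjusted p = 0.0011) and CCNF, an F-box cyclin (-0.24, adjusted p = 0.0013). CCNB1, the mitotic cyclin and the highest in FPKM of them, was at 459, 486 and 507 CPM in control and 430, 437 and 462 CPM in knockdown cells and was not called (-0.13, adjusted p = 0.059). CCNB1 was called lower in 5 of 14 alternatives, among them DESeq2 (adjusted p = 0.011), under which 4 of these 5 genes were lower.

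**Figure D4:**
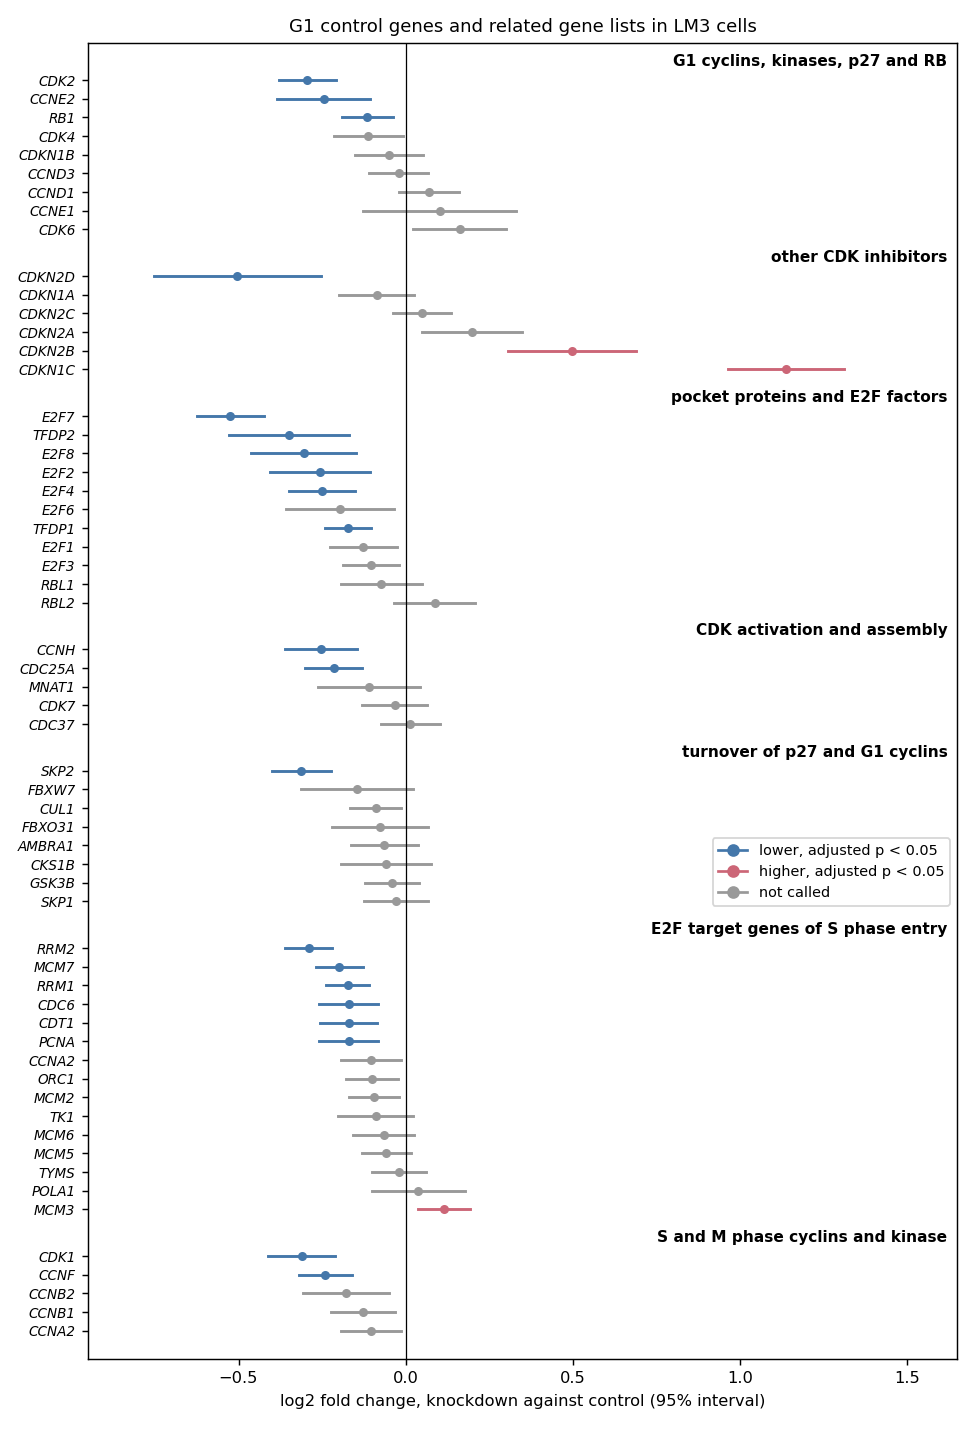
Log2 fold change (horizontal axis, knockdown against control) with its 95% interval for the tested genes of the set and of 6 related lists, coloured by call. E2F5 is left out because an overlapping gene had many times its counts, and 1 target gene is not shown. CDKN1C (1.14) and CDKN2B (0.50) lie to the right of 0, and the E2F genes and their targets lie mostly to the left.

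The letters of E2F-type sites in the promoters were read beside these values. RefSeq windows (GRCh38.p14) of 250 bases before and 50 after a RefSeq transcript start were searched on both strands for TTTCCCGC, TTTCGCGC, TTTGCCGC and TTTGGCGC, which can overlap each other on opposite strands. A window counted where its start lay within 5000 bases of the gene's 5′ end in the deposited table. Of all 16441 such windows, 4.68% held at least 1 match, and of the 13269 genes with such a window, 5.43% had a match in at least 1. Among the E2F target genes it was 9 of 14 with a window (64.3%), and among pocket protein and E2F genes 5 of 10 (50%). The lists of liver, epithelial and other cell type markers, in which 0 genes had a match, were left out of the next counts. Of the 17 listed genes with a match, 8 (47.1%) were called lower, 1 higher and 8 were not called. Of the 34 with a window and no match, 9 (26.5%) were called lower, 1 higher and 24 were not called, and over all tested genes 12.4% were lower and 10.4% higher. The match and the call were not tested against each other. Some counted windows start well inside the gene, such as those of RRM2 (1870 and 2041 bases, no match) and MCM7 (543 to 1411 bases, with a match). For 9 of the genes with a match, 30 bases around a match are shown as examples of each outcome, 5′ to 3′ on the gene's strand, with matches in capitals. The capitals at the left end for E2F1 are only the end of a neighbouring match, which the edge cuts. CDC25A, CDT1, MCM7 and TFDP1 were called lower, MCM3 was called higher, and E2F1, E2F3, MCM6 and RBL1 were not called:
CDC25A (chr3:48188443-48188472, minus strand): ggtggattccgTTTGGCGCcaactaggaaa
CDT1 (chr16:88803743-88803772, plus strand): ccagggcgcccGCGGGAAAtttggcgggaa
MCM7 (chr7:100101388-100101417, minus strand): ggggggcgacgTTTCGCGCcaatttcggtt
TFDP1 (chr13:113584622-113584651, plus strand): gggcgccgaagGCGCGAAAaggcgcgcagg
MCM3 (chr6:52284898-52284927, minus strand): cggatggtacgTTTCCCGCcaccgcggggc
E2F1 (chr20:33686387-33686416, minus strand): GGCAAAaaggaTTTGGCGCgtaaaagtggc
E2F3 (chr6:20401815-20401844, plus strand): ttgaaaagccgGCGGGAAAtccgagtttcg
MCM6 (chr2:135876515-135876544, minus strand): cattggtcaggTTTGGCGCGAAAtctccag
RBL1 (chr20:37096005-37096034, minus strand): cagctgcagatTTTCGCGCgcTTTGGCGCa

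Such windows were found for 5 of the 10 G1 genes (CCND3, CCNE1, CDK4, CDK6 and CDKN1B), and 0 of 5 held a match. Those of CCND3, CDKN1B and CDK4 start 1669, 2310 and 3703 bases inside the gene as the table places it. No match says only that these letters are not in this window. The stretch from -250 to -94 bases relative to the CCNE1 start, without the bases nearer to it, lies outside annotated exons and holds no capitals. It is shown as an example because CCNE1 is an E2F target by textbook knowledge:
CCNE1 (chr19:29811741-29811897, plus strand): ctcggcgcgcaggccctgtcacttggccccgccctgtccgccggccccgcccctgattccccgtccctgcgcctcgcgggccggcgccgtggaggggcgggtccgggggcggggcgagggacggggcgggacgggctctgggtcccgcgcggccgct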

How the data were processed

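RNA-seq of 6 LM3 samples (3 control, 3 knockdown) was analysed from 1 deposited table. Per the labels, the authors trimmed reads with cutadapt 1.9 and used FastQC and GRCh38, and the paper's methods name HISAT2 for mapping. The counting program, strand setting and annotation release are not given in the sources used here. The authors deposited raw counts per gene as whole numbers without normalization, and FPKM values that they divided by gene length and library size and wrote to 2 decimals. Of the 32092 genes shared with GENCODE 29, 99.77% overlapped their position there.

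Counts were filtered (filterByExpr), scaled by TMM and tested with edgeR 4.0.16 (glmQLFit, glmQLFTest, group term only) under R 4.3.3, and p-values were adjusted over 18390 genes by Benjamini-Hochberg. Every adjusted p in the text is from this test unless another is named. Standard errors (SE) were derived from the fold change and its F value, and 95% intervals from SE and the t distribution. The procedure was tested on simulated data, in which small changes were called less often than large ones. Simulated log2 changes of 0.3, 0.6 and 1.0 in size were called in 43.9%, 67.2% and 80.6% of cases. Changes below 0.3, the size of all 9 tested genes of the set, were not simulated, so a gene not called is not shown to be unchanged. Shares used FPKM and an exact permutation test. Counts of 2 samples of a group differed by more than counting noise (chi-square averaged over genes, 12.8 to 22.2 over the pairs), so no library was taken as deposited again under another name. This does not show that the cultures were separate.

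The genes and lists were chosen with earlier results of these data known. Named are ZNF706, the 10 genes of the set and, of each list, the called genes with the 4 smallest p and the gene with the highest FPKM. Alternatives were DESeq2 1.42.0, its size factors in edgeR, library size alone, unfiltered counts, genes averaging 50 or more counts, a block on replicate number, omission of each sample, limma 3.58.1 on log2(FPKM + 0.1) where FPKM averaged 1 or more, and each library's loess trend on transcript GC content as an offset with the TMM centring kept. 1 gene of the E2F target list is counted but not reported here. The motif search and its limit of 5000 bases were chosen after the values were seen.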

Additional observations from a re-analysis of the deposited data

How the results depend on the processing

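Over all genes, the number called was 4192 and lay between 2648 and 3424 with a sample left out, lowest without knockdown replicate 2. Of the 9 tested genes of the set, 3 were called. With a sample left out it was 1 to 3, namely 1 without control replicate 2, control replicate 3 or knockdown replicate 2 (CDK2 in each). The study's criteria were read here as an unadjusted p below 0.05 with a log2 change of 0.3 or more in size. They were applied to the edgeR test, whereas the study used DESeq2. By these criteria 0 of the 9 passed, where 2848 of all genes did. CDK2 kept its call in all 14 alternatives, CCNE2 in 8 and RB1 in 4. CDK4 and CDK6 were each called in 3, and CCND1, CCND3, CCNE1 and CDKN1B in 0. The cause of these losses was not tested. The sign turned for CCND3 by library size alone (0.034) and in limma on FPKM (0.028), for CDKN1B by library size alone (0.0025), for RB1 and CKS1B with the GC trend removed (0.0022 and 0.0037), and for CDC37 without control replicate 1 (-0.0020), without knockdown replicate 3 (-0.023, the range with a sample left out reaching 0.045) and with the GC trend removed (-0.052). The CDK6 share differed by 3.85 percentage points in raw counts, which are not divided by length. E2F target genes called lower numbered 4 to 10 over the alternatives and the pocket protein and E2F genes 4 to 8. Taken over all tested genes, the deviations of same-numbered samples from their group means were nearly uncorrelated (r = 0.034, -0.036 and -0.016). Whether the numbers pair the samples for part of the genes was not tested. With the replicate block, 4361 genes were called over all and 4 of the set, CDK4 beside the 3. CCND2 had at most 7 counts in any sample and was not tested.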
